A study of Mus musculus with 4 samples.

Results

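The subject is the mRNA of tibialis anterior muscle from treated and untreated Dmd Dup2 mice, taken as all 1000 genes of the deposited table, so that 1000 of 1000 genes and 2 of the 4 libraries of the series enter. Dmd Dup2 mice carry a duplication of exon 2 of Dmd, the dystrophin gene, and both groups share this mutation. The untreated group is labelled an untreated control. The treated group is labelled with scAAV9.U7-ACCA. This is a vector made from adeno-associated virus serotype 9, with a self-complementary genome, and it carries a U7 small nuclear RNA, a tool used to make cells skip an exon. Each group had 1 mRNA library, made from frozen muscle with a stranded total RNA kit and read at 50 nt. The labels give no dose, route, time after injection, age, sex or number of animals, no promoter for the vector, and no wild-type muscle for reference.

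Dystrophin ties the actin filaments inside a muscle fibre to laminin outside it through a complex in the membrane. Where it is missing, contraction tears the membrane, fibres die and regenerate, immune cells enter and connective tissue replaces muscle. Regenerating fibres pass again through a stage with embryonic and cardiac forms of the contractile proteins before they take on the adult fast or slow form, and the tibialis anterior of the mouse is mostly fast.

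In total 125236 reads of the untreated library and 4248818 of the treated library fell on the listed genes, with medians of 25 and 705 reads per gene, and the lowest count was 14 in each. With TMM scaling, which sets the bulk of the genes level, 1 untreated read corresponded to 22.4 treated reads. A gene is called higher or lower in the treated library here when it differed by at least 1.5-fold and the exact 95% interval of its ratio lay on 1 side of 1. With 1 library per group there is no test of the treatment, every interval covers counting error only, and a call compares these 2 libraries. Genes are in the table because they ranked high in the untreated library, so a gene with few untreated reads could appear only if it had at least 14 of them.

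In the treated library 296 of the 1000 genes (29.6%) were higher and 259 (25.9%) were lower, and 445 were called neither way. Differences of 4-fold or more were called for 48 genes on the higher side and 77 on the lower side, and of 10-fold or more for 2 and 12. The log2 ratio of single genes ran from −5.45 to 4.07, with 10% of genes under −1.65 and 10% over 1.55. The median interval reached 0.62 log2 units to each side, and 0.83 for the 67 genes with 14 untreated reads. Other scalings shift every ratio alike, and the median log2 ratio of all genes, 0.00 with TMM, was −0.83 with the authors' library constants, and genes called higher made up 53.3% of all calls with TMM and 16.7% with those constants. A stricter set is therefore given beside the calls of groups: 110 genes (11.0%) were higher and 251 (25.1%) lower under all 8 scalings tried. With these scalings 1 untreated read corresponded to 21.6 to 39.7 treated reads, so TMM, at 22.4, lay near the low end. Most other scalings thus lower the ratios, and the stricter set is demanding for higher calls and hardly so for lower calls. A gene named below without a remark held its call under all 8, and "with TMM" marks one that lost it under at least 1. Medians of gene groups are differences from the median listed gene, which no scaling can move.

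**Figure D1:**
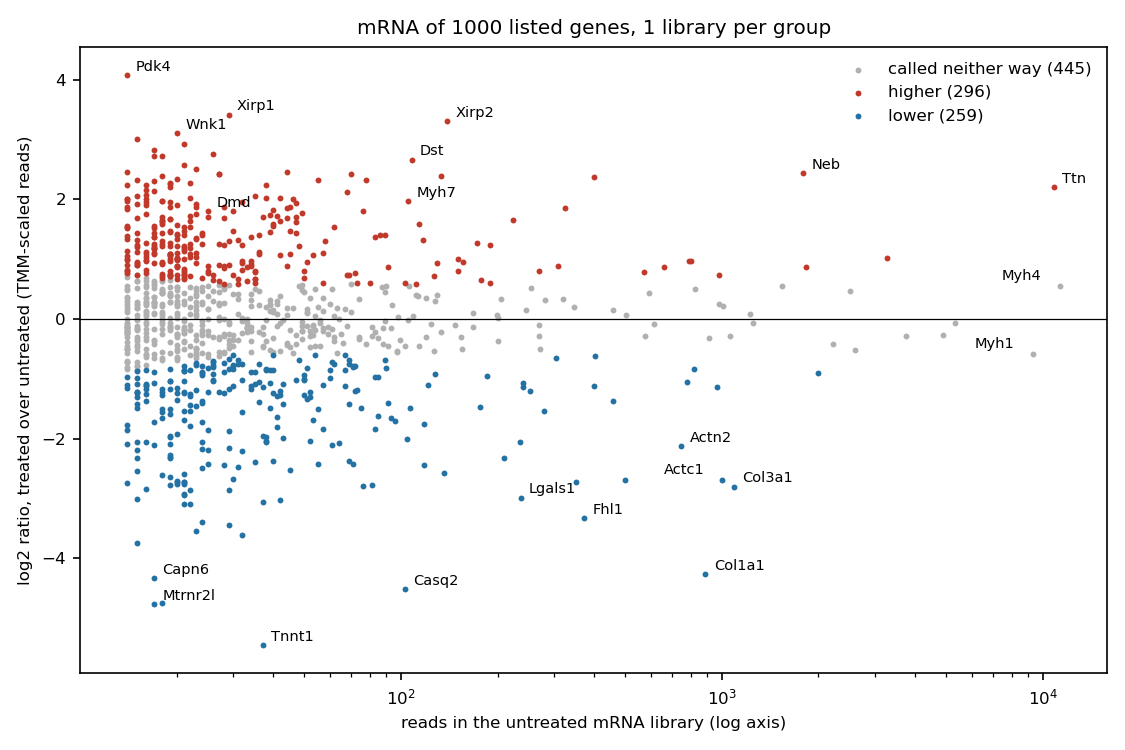
Each point is 1 of the 1000 listed genes, placed by its reads in the untreated mRNA library (log axis) and by its log2 ratio of TMM-scaled reads, treated over untreated, with 296 genes called higher in red, 259 called lower in blue and 445 called neither way in grey. The lowest genes reach −5.45 (Tnnt1) and the highest 4.07 (Pdk4), and Ttn and Neb stand apart among the genes with over 1000 untreated reads.

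The tissue label was checked against markers of muscle fibres and of other cells. Of 10 fibre markers 9 were listed (Tnnt3 was not), and with TMM 4 were higher and 0 lower. Most other scalings lower the ratios, and the counts of fibre markers under them are not given here. Ttn kept its higher call under every scaling tried. The summed level of the listed fibre markers was 301128 CPM in untreated and 580577 in treated muscle, where CPM are reads scaled by the TMM library size. Ttn alone made up 70448 and 326235 CPM of these sums. Of 11 macrophage markers 4 were listed, at 1013 and 203 CPM, and all 4 were lower. Of 6 fibroblast markers 5 were listed, at 16630 and 3156 CPM, with 3 lower and 1 higher. No defining marker of lymphocytes, endothelium, red cells, Schwann cells, tendon or satellite cells was in the table. Fewer cells of a type and less RNA per cell cannot be told apart in whole muscle.

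Dmd had 25 reads in untreated and 1959 in treated muscle, a ratio of 3.50 (95% interval 2.36 to 5.41). Utrn, which encodes the related protein utrophin, had 18 and 769 reads, 1.91-fold higher (1.20 to 3.23) with TMM. The ratio of Dmd to Utrn was 1.83 times as large in treated as in untreated muscle, with an interval from 0.937 to 3.52 that held 1, so these counts do not separate the 2 genes. Dag1, the dystroglycan that spans the membrane, went from 16 to 1345 reads and was 3.75-fold higher (2.30 to 6.58). Lama2, the laminin chain that dystroglycan binds outside the fibre, had 20 and 1684 reads and was 3.76-fold higher (2.42 to 6.16). Dtna, the syntrophin partner dystrobrevin, was called neither way at 1.18 (0.718 to 2.08). Of 8 listed members of the complex 6 were higher and 0 lower, or 3 and 0 under all 8 scalings, and their median lay 1.09 above the median gene. Gene counts do not show which exons the reads covered, so the duplicated exon was not assessed.

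The 25 genes highest in the treated library, ranked by the interval bound nearest to 1, included enzymes and regulators beside the large sarcomere genes. Pdk4, the kinase that shuts pyruvate dehydrogenase when fat is the fuel, had 14 and 5284 reads, a ratio of 16.8 (10.02 to 30.8). Zfp106, an RNA-binding zinc finger protein needed for nerve and muscle upkeep, had 70 and 8471 reads and was 5.40-fold higher (4.27 to 6.93). Ccng1, the p53 target cyclin G1, had 18 and 2667 reads and was 6.61-fold higher (4.17 to 11.2). Tns1, tensin 1, which ties actin to integrins at adhesions, had 17 and 2513 reads, 6.59-fold higher (4.11 to 11.3). The lower bounds of these intervals were all above 4. Anapc5, a subunit of the anaphase-promoting ubiquitin ligase, had 21 and 2802 reads and a ratio of 5.95 (3.89 to 9.63). Ybx1, an mRNA-packaging cold shock protein, had 23 and 2941 reads and a ratio of 5.70 (3.79 to 9.01). Kif1c, a kinesin motor, and AI314180, a proteasome adaptor, had 27 untreated reads each and 3267 and 3266 treated reads, 5.40-fold higher (3.70 to 8.20) in both cases. Golga4, a tether of Golgi vesicles, had 38 and 4031 reads, 4.73-fold higher (3.44 to 6.70).

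The genes at the other end lay farther from 1. Tnnc1, the troponin C of slow and cardiac muscle, had 18 untreated and 15 treated reads although the treated library was far deeper, and was 26.9-fold lower (12.8 to 57.3). Tnnt1, the slow troponin T, behaved alike with 37 and 19 reads, 43.7-fold lower (24.5 to 80.4). Capn6, a calpain without protease activity that is expressed in immature muscle, had 17 and 19 reads and was 20.1-fold lower (9.79 to 40.8). Gng11, a G protein gamma subunit, had 15 and 25 reads, 13.5-fold lower (6.59 to 26.5). These 4 genes were so few in the treated library that a minimum of 50 summed reads leaves out Tnnc1, Capn6 and Gng11. Mtrnr2l, at 17 and 14 reads and 27.2-fold lower (12.6 to 59.7), matches mitochondrial ribosomal RNA in sequence, and its reads are uncertain. Ppp3r1, the regulatory subunit of calcineurin, had 76 and 246 reads and was 6.93-fold lower (5.28 to 8.99). Itm2a, a membrane protein of differentiating muscle, had 81 and 266 reads, 6.83-fold lower (5.26 to 8.79). Selk, a selenoprotein of the endoplasmic reticulum, had 37 and 99 reads, 8.38-fold lower (5.58 to 12.3). Crip1, a small LIM-domain protein, had 22 and 58 reads, 8.50-fold lower (4.96 to 14.1).

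**Figure D2:**
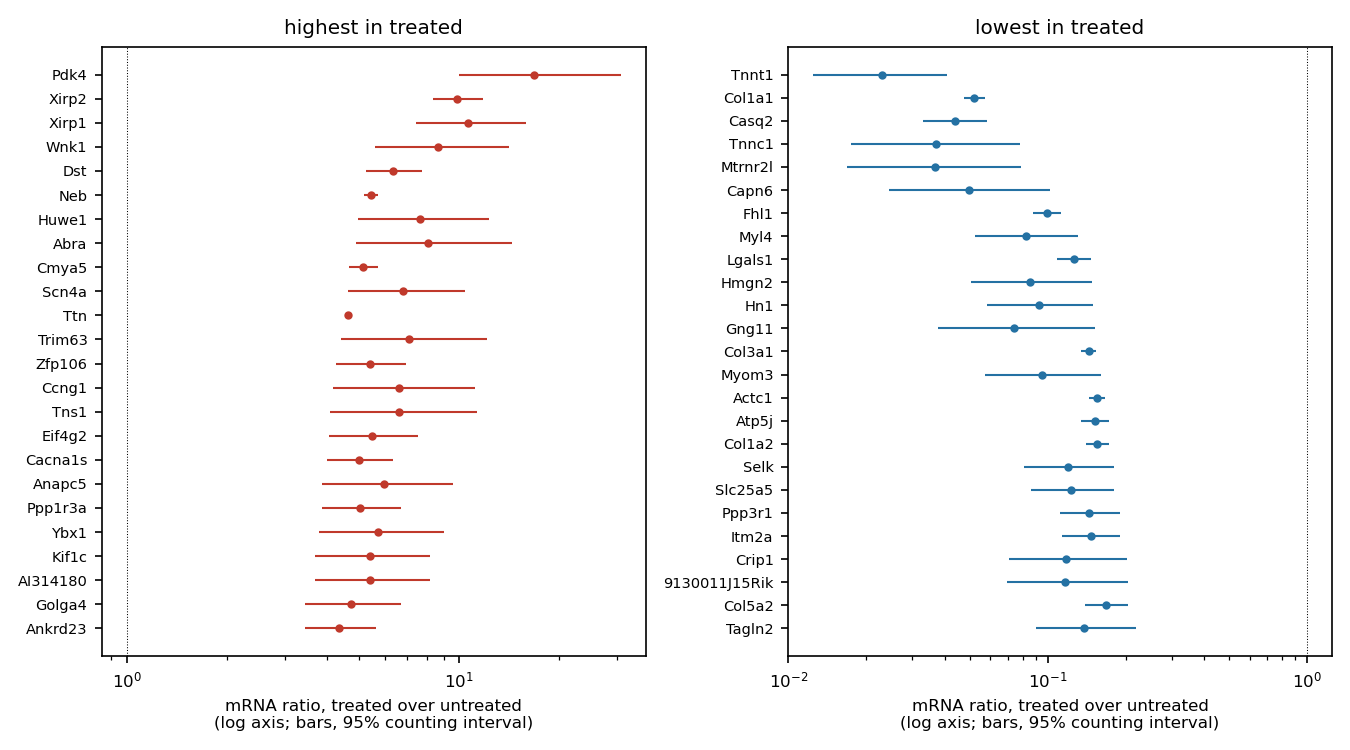
The ratio of TMM-scaled mRNA reads, treated over untreated, is plotted on a log axis for the genes ranked highest (left) and lowest (right), with bars for the 95% counting interval. Pdk4 lies at 16.8 with a wide interval, while Neb and Ttn, at 5.45 and 4.63, have narrow intervals.

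Promoters of genes from both ends are shown to give the sequence context of genes that lay far from 1. The sequences are the 150 bases before the RefSeq start on GRCm38.p6, 5′ to 3′ on the gene's strand, and capitals mark the motif named in each case. They lie upstream of the transcribed gene. Pdk4, chr6:5496279-5496428, minus strand, has a CCAAT box read on the opposite strand, 131 to 127 bases before the start. Xirp2, chr2:67445852-67446001, plus strand, has a MEF2 motif at 74 to 65 bases. Trim63, chr4:134314970-134315119, plus strand, has TATAAA at 31 to 26 bases. Col1a2, chr6:4505468-4505617, plus strand, has CCAAT at 109 to 105 bases. Actc1, chr2:114052876-114053025, minus strand, has a CArG box, the site of serum response factor, at 47 to 38 bases. Tnnt1, chr7:4515976-4516125, minus strand, has TATAAA at 30 to 25 bases. Casq2, chr3:102086265-102086414, plus strand, has a MEF2 motif at 69 to 60 bases.
Pdk4: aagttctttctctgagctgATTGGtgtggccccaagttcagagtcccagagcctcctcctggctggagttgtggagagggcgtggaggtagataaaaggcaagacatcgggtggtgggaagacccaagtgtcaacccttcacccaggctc
Xirp2: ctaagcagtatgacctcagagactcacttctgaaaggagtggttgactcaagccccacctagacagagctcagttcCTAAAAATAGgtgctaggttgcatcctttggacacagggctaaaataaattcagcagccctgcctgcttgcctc
Trim63: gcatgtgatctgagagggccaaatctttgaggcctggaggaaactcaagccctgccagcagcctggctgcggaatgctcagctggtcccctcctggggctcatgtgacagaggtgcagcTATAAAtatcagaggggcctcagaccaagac
Col1a2: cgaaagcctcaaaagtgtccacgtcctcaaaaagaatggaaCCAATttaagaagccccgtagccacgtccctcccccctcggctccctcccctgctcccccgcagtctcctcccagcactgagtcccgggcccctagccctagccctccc
Actc1: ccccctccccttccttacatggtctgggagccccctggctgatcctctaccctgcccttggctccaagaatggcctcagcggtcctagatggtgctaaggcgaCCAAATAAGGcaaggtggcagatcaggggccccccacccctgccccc
Tnnt1: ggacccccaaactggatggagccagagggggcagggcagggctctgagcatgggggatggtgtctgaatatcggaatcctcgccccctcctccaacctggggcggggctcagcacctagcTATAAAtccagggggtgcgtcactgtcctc
Casq2: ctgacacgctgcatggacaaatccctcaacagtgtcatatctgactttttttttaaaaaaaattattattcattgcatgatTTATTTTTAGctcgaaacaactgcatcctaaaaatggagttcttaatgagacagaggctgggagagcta

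Of the listed genes 809 had such a window. The search covered both strands for 6 motifs. A gene was counted when any of its starts had the motif. A CArG box was in 1.85% of listed genes and in 1.04% of all 27025 genes with a promoter, and a MEF2 motif in 2.22% and 1.95%. The TATA letters TATAAA stood in 8.16% of listed genes and 8.89% of all genes with a promoter, and the box CCAAT in 35.4% and 27.7%. The GC box GGGCGG stood in 52.0% and 31.3%, and the letters CACCC in 48.6% and 40.5%. Among the 25 highest genes 19 had a window, of which 1 held a CArG box, 2 TATAAA, 5 CCAAT, 10 GGGCGG, 7 CACCC and 2 a MEF2 motif. Among the 25 lowest 21 had one, of which 2 held a CArG box, 3 TATAAA, 4 CCAAT, 11 GGGCGG, 13 CACCC and 2 a MEF2 motif. A MEF2 motif was thus found in a highest gene (Xirp2) and in a lowest gene (Casq2). A match is a description of letters and not a site in use.

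Genes of mechanical load and muscle activity had the highest group median among the 44 groups with at least 3 listed members, 2.20 above the median gene, with 6 of 7 higher and 0 lower, or 5 and 0 under all 8 scalings. Xirp2, which binds actin at the Z-disc and the fibre ends, had 139 and 30884 reads, 9.91-fold higher (8.39 to 11.8). Its relative Xirp1 had 29 and 6954 reads, 10.7-fold higher (7.44 to 15.98), and the ratio of Xirp1 to Xirp2 reads, 0.209 in untreated and 0.225 in treated muscle, differed by a factor of 1.08 (0.719 to 1.67). Abra, which releases the cofactor of serum response factor from actin, had 15 and 2724 reads, 8.10-fold higher (4.90 to 14.5). Ankrd23, an ankyrin-repeat protein of the titin spring region, had 68 and 6645 reads, 4.36-fold higher (3.43 to 5.62). Nr4a1, a nuclear receptor switched on by exercise, had 19 and 1960 reads, 4.60-fold higher (2.94 to 7.66). Ankrd1, a relative of Ankrd23, was the member called neither way with TMM, with 27 and 483 reads and a value 1.25-fold lower (0.817 to 1.85). With the authors' constants 5 genes of the group were higher and 1 lower, and the lower one was Ankrd1. Scaling by upper quartile or by listed total also called Ankrd1 lower.

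Giant sarcomere proteins took a much larger share of the treated reads. Their 6 listed genes held 11.2% of the listed reads in untreated (95% interval 11.0 to 11.3) and 33.5% in treated muscle (33.4 to 33.5), and their median lay 1.55 above the median gene. Ttn, the molecular spring titin, had 10853 and 1126793 reads, 4.63-fold higher (4.54 to 4.72). Neb, the thin-filament ruler nebulin, had 1788 and 218348 reads, 5.45-fold higher (5.20 to 5.71). Cmya5, myospryn, which binds titin and desmin, had 398 and 46065 reads, 5.16-fold higher (4.68 to 5.71). Other members differed less or in the other direction. Nrap, an actin-binding protein of growing myofibrils, was 1.84-fold higher (1.64 to 2.07) with TMM. Obsl1, a protein of the M-band, had 32 and 356 reads and was 2.02-fold lower (1.36 to 2.90). The 10 most abundant genes of each library together held 44.8% of untreated and 57.3% of treated reads, and 8 genes were in both sets.

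Of 18 Z-disc and intermediate filament genes 4 were higher and 4 lower with TMM, both shares below those of all genes. Under all 8 scalings 0 were higher and 4 lower, and with the authors' constants 0 and 9. Myot, myotilin, which bundles actin at the Z-disc, had 86 and 5120 reads, 2.66-fold higher (2.15 to 3.33) with TMM. Fhl1, a LIM protein that binds titin, had 372 and 831 reads, 10.04-fold lower (8.86 to 11.4). Des, the intermediate filament desmin, had 776 and 8351 reads, 2.08-fold lower (1.93 to 2.24). Actn2, the alpha-actinin of all fibres, had 748 and 3849 reads and was 4.36-fold lower (4.02 to 4.71), while Actn3, the alpha-actinin of fast fibres, had 800 and 35050 reads and was 1.95-fold higher (1.82 to 2.10) with TMM. In the M-band, Myom3, a myomesin of slower fibres, had 24 and 51 reads, 10.6-fold lower (6.21 to 17.5). Ckm, the muscle creatine kinase that also binds there, had 1827 and 75145 reads, 1.83-fold higher (1.75 to 1.92) with TMM.

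The slow and cardiac contractile group had the lowest median at −2.69 relative to the median gene, with 7 of 9 genes lower, also under all 8 scalings. Casq2, the calcium store protein of slow and cardiac muscle, had 103 and 101 reads, 22.9-fold lower (17.2 to 30.4). Actc1, cardiac actin, had 1004 and 3476 reads, 6.48-fold lower (6.03 to 6.95). Mybpc1, slow myosin-binding protein C, had 966 and 9857 reads, 2.20-fold lower (2.05 to 2.35). The slow myosin heavy chains went the other way. Myh7, the slow myosin, had 105 and 9217 reads, 3.92-fold higher (3.23 to 4.79), and Myh6, the cardiac alpha myosin, had 190 and 10107 reads, 2.37-fold higher (2.06 to 2.75) with TMM. Myh6 and Myh7 are near-identical neighbours, and myosin heavy chain genes share long stretches, so reads could have been credited to more than 1 of them. The group as a whole held 1.98% of untreated reads (1.90 to 2.05) and 0.775% of treated reads (0.767 to 0.784).

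Pairs of fast and slow, or adult and immature, forms were compared within each library, which removes the scaling. Tnnc2, fast troponin C, had 1063 and 19590 reads, and its ratio to Tnnc1 was 22.1 times as large in treated muscle (10.5 to 47.2). Casq1 over Casq2, the fast over the slow calsequestrin, was 21.7 times as large (16.1 to 29.2). Myl1 over Myl4, the fast over the embryonic myosin light chain, was 11.6 times as large (7.25 to 18.2). Myom2 over Myom3 was 8.65 times (5.05 to 14.4), Actn3 over Actn2 8.51 times (7.65 to 9.47) and Tpm1 over Tpm3, a fast over a slow tropomyosin, 6.90 times (3.95 to 11.5) as large. Acta1, skeletal actin, over cardiac Actc1 was 5.32 times as large (4.92 to 5.75), and Mybpc2 over Mybpc1 4.03 times (3.64 to 4.47). All 8 of these pairs moved toward the fast or adult form. The pair of myosin heavy chains Myh4, of type IIb fibres, and Myh7 moved in the opposite direction, to 0.375 times its untreated value (0.306 to 0.455).

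Within the fast myosins the reads also shifted. Myh4 had 11352 and 373461 reads and Myh1, the type IIx chain, 9317 and 139411, and Myh4 over Myh1 was 2.20 times as large in treated muscle (2.14 to 2.26). Myh4 over Myh2, the type IIa chain, was 1.54 times as large (1.49 to 1.60). Myh4 over Myh8, the perinatal chain, was 1.76 times as large (1.70 to 1.82), and over Myh3, the embryonic chain, 1.38 times (1.30 to 1.46). With TMM all 5 genes were called neither way on their own, and Myh1 lay just under the fold threshold on the lower side. Most other scalings lower these ratios. The fast contractile group as a whole had 5 of 17 genes higher (29.4%) and 1 lower (5.88%), against 29.6% and 25.9% of all genes. Under all 8 scalings 2 were higher (11.8%) and 1 lower (5.88%), against 11.0% and 25.1% of all genes. With the authors' constants 2 were higher and 8 lower. The group's share of the listed reads went from 36.7% (36.5 to 37.0) to 27.4% (27.4 to 27.5). Mylk4, a myosin light chain kinase, had 42 and 3824 reads and was 4.06-fold higher (2.999 to 5.64).

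**Figure D3:**
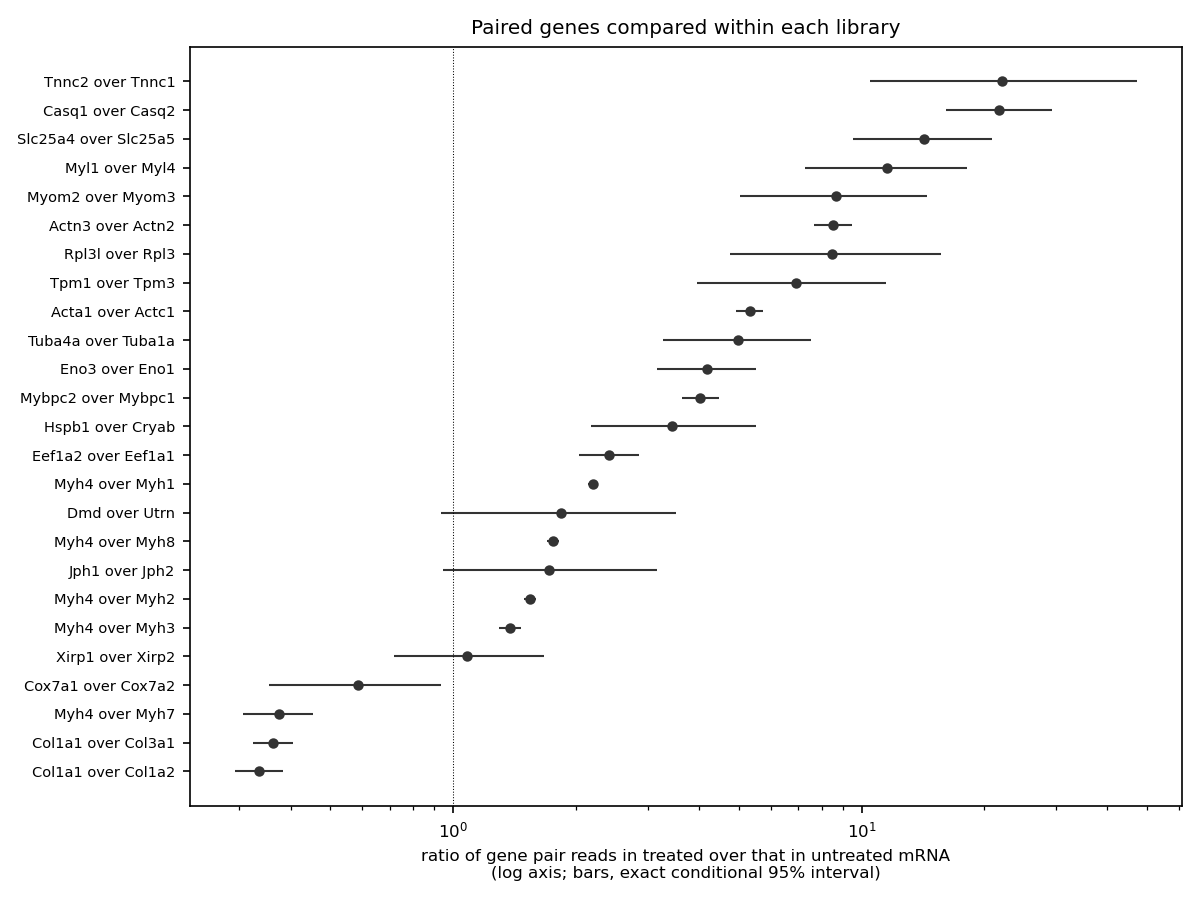
For 25 pairs of related genes the ratio of their reads in treated muscle is divided by that in untreated muscle and drawn on a log axis, with the exact 95% interval as bars. Fast over slow pairs such as Tnnc2 over Tnnc1 (22.1) and Casq1 over Casq2 (21.7) lie far to the right, Xirp1 over Xirp2 (1.08) at no difference, and Myh4 over Myh7 (0.375) to the left.

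Muscle over general forms of household proteins were shifted as well. Slc25a4, the muscle carrier that exchanges ADP and ATP, over Slc25a5, its form in dividing cells, was 14.2 times as large in treated muscle (9.53 to 20.8), from 270 and 42 untreated and 10598 and 116 treated reads. Rpl3l, a ribosomal protein that replaces Rpl3 in adult muscle, had 19 and 1567 reads while Rpl3 had 42 and 408, and the ratio of Rpl3l to Rpl3 was 8.48 times as large (4.76 to 15.6). Tuba4a over Tuba1a, the adult over the developmental alpha-tubulin, was 4.97 times as large (3.27 to 7.52). Eno3 over Eno1, muscle over general enolase, was 4.20 times as large (3.15 to 5.52), and Eef1a2 over Eef1a1, the muscle over the general elongation factor, 2.41 times (2.04 to 2.85). Cytochrome oxidase was an exception, since Cox7a1 over Cox7a2, the muscle over the general subunit, went to 0.585 times its untreated value (0.354 to 0.937).

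Genes of immature and regenerating fibres were lower in 5 of 9 cases (55.6%, against 25.9% of all genes), also under all 8 scalings. With TMM 1 was higher, and Myh3, Myh8 and Igfbp5 were called neither way. With the authors' constants 7 of the 9 were lower. The group's share of reads went from 5.83% (5.70 to 5.96) to 2.98%. Of its 7299 untreated reads Myh8 held 4891 and Myh3 1226, and of its 126639 treated reads 91577 and 29282. The group median lay at −0.86 relative to the median gene. The median was −0.26 with members of no other list and −0.24 with at least 200 summed reads. Myl4, the embryonic light chain, had 32 and 59 reads, 12.2-fold lower (7.65 to 19.01). Grb10, an imprinted brake on insulin signalling, had 25 and 123 reads, 4.56-fold lower (2.84 to 7.05). Peg3, an imprinted zinc finger gene, had 67 and 828 reads, 1.81-fold lower (1.39 to 2.33). Myf6, the myogenic factor of adult fibres, was 1.85-fold higher (1.19 to 3.04) with TMM.

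Of the 11 collagen genes in the group's list 8 were lower, also under all 8 scalings, and 0 higher, and their share of reads went from 2.53% (2.44 to 2.62) to 0.301% (0.296 to 0.306). Col1a1, a chain of type I collagen, had 888 and 1037 reads, 19.2-fold lower (17.5 to 21.02), and Col1a2, its partner chain, had 500 and 1742 reads, 6.44-fold lower (5.81 to 7.11). The 2 chains assemble in a fixed proportion, yet the ratio of Col1a1 to Col1a2 reads in treated muscle was 2.98-fold lower than in untreated muscle (2.60 to 3.42). Col5a1, of the collagen that sets fibril width, had 118 and 490 reads, 5.40-fold lower (4.38 to 6.61). Of 19 noncollagen matrix genes 8 were higher and 4 lower with TMM, 3 and 4 under all 8 scalings, and 3 and 8 with the authors' constants. Their median lay 0.31 above that of all genes. Dcn, the small proteoglycan decorin, had 62 and 4040 reads, 2.91-fold higher (2.26 to 3.80). Lamc1, a basement membrane laminin chain, had 20 and 1332 reads, 2.97-fold higher (1.92 to 4.88). Mgp, the matrix Gla protein that hinders mineral, had 24 and 96 reads, 5.60-fold lower (3.43 to 8.84), and Bgn, biglycan, had 43 and 361, 2.67-fold lower (1.90 to 3.67). Sparc, a collagen-binding matrix protein, had 50 and 559 reads, 2.01-fold lower (1.47 to 2.68). Among the fibroblast markers, Dcn was higher, while Col1a1, Col1a2 and Col3a1 were lower. Lum, lumican, was called neither way at 1.11 (0.735 to 1.77) with TMM.

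Of 14 listed macrophage and innate genes 7 were lower and 1 higher, and of 8 antigen presentation genes 7 were lower and 0 higher, with medians at −0.92 and −1.11 relative to the median gene. All of these calls held under all 8 scalings. With the authors' constants more genes were lower, 9 in the macrophage and innate group and 8 in antigen presentation. C1qa and C1qb, complement chains made by macrophages, had 30 and 25 untreated and 105 and 104 treated reads, 6.41-fold (4.12 to 9.69) and 5.39-fold (3.34 to 8.40) lower. Apoe, a lipid carrier made by macrophages, had 104 and 584 reads, 3.99-fold lower (3.21 to 4.93). H2-Eb1 and H2-Ab1, class II chains of antigen-presenting cells, had 32 and 29 untreated and 156 and 178 treated reads, 4.60-fold (3.04 to 6.76) and 3.65-fold (2.38 to 5.43) lower. Fth1, the iron store ferritin, which fibres express as well, was the member that was higher, with 76 and 5964 reads and a ratio of 3.50 (2.79 to 4.45). Tfrc, the receptor that brings in iron, had 83 and 518 reads and was 3.59-fold lower (2.81 to 4.54). The summed macrophage markers moved with these genes, from 1013 to 203 CPM, and their part in the difference was not tested.

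Ubiquitin and its ligases were mostly higher, with 18 of 24 genes higher, 2 lower and a median 1.58 above the median gene, and 13 of the 24 were higher under all 8 scalings. Huwe1, a giant ubiquitin ligase, had 21 and 3591 reads, 7.63-fold higher (4.98 to 12.3). Trim63, the muscle ligase MuRF1 of atrophy, had 17 and 2695 reads, 7.07-fold higher (4.41 to 12.2). Trim72, the membrane repair protein MG53, had 41 and 294 reads and was 3.13-fold lower (2.20 to 4.35). The proteasome had 4 of 20 genes higher and 3 lower, 0 and 3 under all 8 scalings, and 0 and 11 with the authors' constants. Its median lay at −0.05 relative to the median gene. Psma5, a core subunit, had 24 and 208 reads, 2.59-fold lower (1.62 to 3.96), and Psmd2, a subunit of the cap, had 22 and 1177 reads, 2.39-fold higher (1.57 to 3.82) with TMM. In autophagy 4 of 10 genes were higher and 0 lower, 3 and 0 under all 8 scalings, and 3 and 2 with the authors' constants. Among the higher ones was Lamp1, a lysosome membrane protein, at 28 and 2028 reads, 3.23-fold higher (2.23 to 4.87).

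Among 28 linkers and motors 19 genes were higher and 2 lower with TMM, 8 and 2 under all 8 scalings, and 8 and 6 with the authors' constants. Their median lay 0.85 above that of all genes. Dst, dystonin, which joins filament systems, had 108 and 15382 reads, 6.35-fold higher (5.26 to 7.75). Ahnak, a giant membrane scaffold, had 224 and 15877 reads, 3.16-fold higher (2.77 to 3.62). Of 27 actin and tubulin genes 19 were lower and 3 higher, or 19 and 1 under all 8 scalings, with a median at −1.01 relative to the median gene. Tagln2, an actin-binding calponin relative, had 29 and 90 reads, 7.22-fold lower (4.58 to 11.1). Cfl1, cofilin 1, which severs actin, had 35 and 149 reads, 5.27-fold lower (3.54 to 7.65). S100a6, a calcium-binding protein of dividing cells, had 31 and 125 reads, 5.56-fold lower (3.63 to 8.29). Gsn, gelsolin, was an exception, with 114 and 7682 reads and a ratio of 3.01 (2.50 to 3.65).

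**Figure D4:**
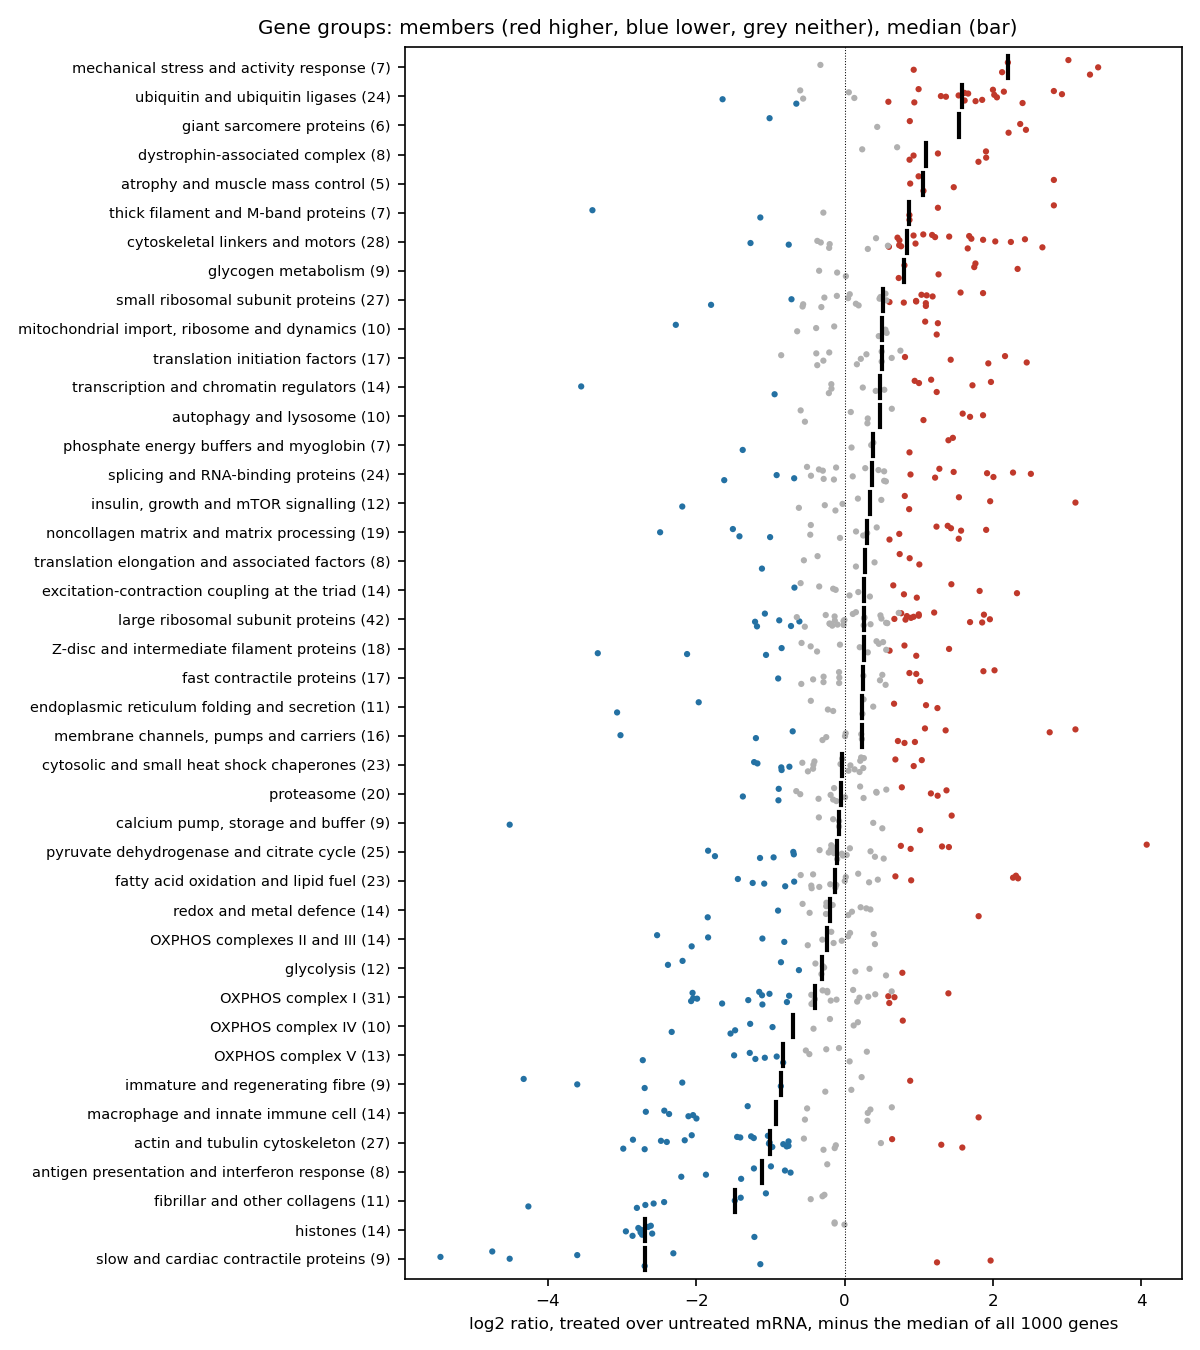
Every gene group with at least 5 listed members has a row, with its genes as points at their log2 ratio minus the median of all 1000 genes and a bar at the group median (red, called higher; blue, lower; grey, neither). Mechanical stress genes (median 2.20) and ubiquitin ligases (1.58) lie at the top, and slow contractile genes (−2.69), histones (−2.68) and collagens (−1.48) at the bottom.

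Calls in membrane excitation and calcium release depended on the scaling. Of 14 triad genes 6 were higher and 1 lower, 3 and 1 under all 8 scalings, and 3 and 7 with the authors' constants. Cacna1s, the voltage sensor of the fibre, had 78 and 8760 reads, 5.01-fold higher (4.01 to 6.34). Tmem38a, a potassium channel of the calcium store, had 40 and 3169 reads, 3.53-fold higher (2.59 to 4.96). Of 16 channels and carriers 7 were higher and 3 lower, 2 and 3 under all 8 scalings, and 2 and 9 with the authors' constants. Wnk1, a kinase that sets chloride transport, had 20 and 3879 reads, 8.65-fold higher (5.59 to 14.2). Scn4a, the sodium channel of the muscle action potential, had 26 and 3964 reads, 6.80-fold higher (4.63 to 10.4). Atp1b1, a beta subunit of the sodium pump, had 72 and 705 reads, 2.29-fold lower (1.77 to 2.92). Atp2a1, the fast calcium pump, had 3279 and 149002 reads, 2.03-fold higher (1.96 to 2.10) with TMM.

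Glycogen genes were higher in 6 of 9 cases (66.7%, against 29.6% of all genes) and lower in 0, with a median 0.81 above the median gene. Under all 8 scalings 3 were higher and 0 lower, and with the authors' constants 3 and 3. Glycolysis had 1 of 12 higher and 4 lower (33.3%, against 25.9% of all genes), or 0 and 2 under all 8 scalings. Its calls were 0 higher and 9 lower with the authors' constants, and 2 and 2 with TMM over 4 libraries. Ppp1r3a, which brings a phosphatase to glycogen, had 55 and 6213 reads, 5.04-fold higher (3.87 to 6.70). Hk1, a hexokinase, had 15 and 74 reads, 4.54-fold lower (2.42 to 7.99). In fat metabolism 5 of 23 genes were higher and 5 lower, or 3 and 5 under all 8 scalings, with both shares below those of all genes. Lpin1, a phosphatidate phosphatase of lipid synthesis, had 20 and 2269 reads, 5.06-fold higher (3.27 to 8.30). Acacb, the acetyl-CoA carboxylase that restrains fat import into mitochondria, had 17 and 1891 reads, 4.96-fold higher (3.09 to 8.54), and Plin4, a lipid droplet coat protein, had 19 and 2057, 4.83-fold higher (3.08 to 8.04). Acads, an enzyme of beta-oxidation, had 22 and 182 reads, 2.71-fold lower (1.66 to 4.23), and Acaa2, of the same pathway, had 40 and 380 reads, 2.36-fold lower (1.66 to 3.27).

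Genes of the respiratory chain were called lower more often than higher in each complex. Of 31 complex I genes 12 were lower and 4 higher, and of 14 genes of complexes II and III 5 were lower and 0 higher. In complex IV 5 of 10 were lower and 1 higher, and in complex V 7 of 13 were lower and 0 higher. In this order the shares called lower were 38.7%, 35.7%, 50% and 53.8%, against 25.9% of all genes. The shares called higher were 12.9%, 0%, 10% and 0%, against 29.6% of all genes. All of these lower calls held under all 8 scalings, and none of the higher calls did. Most other scalings lower the ratios, so this check was stricter for higher than for lower calls. Atp5j, a stalk subunit of ATP synthase, had 351 and 1194 reads, 6.59-fold lower (5.83 to 7.43). Uqcrq, of complex III, had 45 and 175 reads, 5.77-fold lower (4.06 to 8.04). Cox5a, of complex IV, had 210 and 936 reads, 5.03-fold lower (4.31 to 5.85). Ndufc2, of complex I, had 64 and 342 reads, 4.20-fold lower (3.16 to 5.49). Ndufa13, another complex I gene, stood apart at 24 and 1420 reads, 2.64-fold higher (1.77 to 4.13) with TMM. Ckmt2, the creatine kinase that takes up the ATP of mitochondria, had 458 and 3964 reads and was 2.59-fold lower (2.35 to 2.85).

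Of 42 large-subunit ribosomal protein genes 13 were higher and 6 lower, and of 27 small-subunit genes 11 were higher and 2 lower, with medians 0.26 and 0.52 above the median gene. With all 8 scalings 4 and 1 of them were higher, and 5 and 2 lower. With the authors' constants the large subunit had 4 higher and 18 lower, and the small subunit 1 and 10. Shares called higher with TMM were 31.0% and 40.7%, against 29.6% of all genes. Under all 8 scalings the higher shares, 9.52% and 3.7%, were below the 11.0% of all genes. The lower shares, 11.9% and 7.41%, were also below the 25.1% of all genes. Rps16, of the small subunit, had 41 and 264 reads and was 3.48-fold lower (2.44 to 4.85). Rpl4, of the large subunit, had 44 and 3187 reads and was 3.23-fold higher (2.40 to 4.46). Of 17 initiation factors 5 were higher, a share like that of all genes, and 0 lower. Under all 8 scalings 3 were higher, and with the authors' constants 3 were higher and 6 lower. Eif4g2 and Eif4g1, scaffolds of initiation, had 44 and 47 untreated and 5412 and 4038 treated reads, 5.49-fold (4.08 to 7.56) and 3.83-fold (2.88 to 5.22) higher. Of 24 splicing and RNA-binding genes 8 (33.3%) were higher and 3 (12.5%) lower, against 29.6% and 25.9% of all genes. Under all 8 scalings 5 (20.8%) were higher and 3 (12.5%) lower, against 11.0% and 25.1%. With the authors' constants 5 were higher and 11 lower. Srrm2, a scaffold of nuclear speckles, had 46 and 4146 reads, 4.02-fold higher (3.01 to 5.50), and Hnrnpa2b1, an RNA-binding protein of splicing and transport, had 85 and 619, 3.08-fold lower (2.42 to 3.87). Processed copies of ribosomal protein genes are common in the genome, so single values among them are uncertain.

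Several families of near-identical copies had nearly equal counts in all members, and their reads cannot be assigned to 1 copy here. The 13 listed histone H2b genes had 15 to 22 untreated and 42 to 78 treated reads, and all 13 were lower, with log2 ratios from −3.00 to −2.59. Histone messages of this kind serve dividing cells and mostly lack a poly(A) tail. A cluster of 8 zinc finger genes had 19 or 20 untreated and 880 to 915 treated reads, all higher with TMM, with log2 ratios from 1.01 to 1.09. Eno1 and its copy Gm5506 had 69 and 71 untreated reads and 297 treated reads each. Of the 9 class I genes counted as copies 6 were lower. With each of 9 such families counted once, 964 genes remained, 287 higher and 240 lower. Hmgn2, a nucleosome-binding protein with many processed copies, had 23 and 44 reads, 11.7-fold lower (6.75 to 19.8).

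The share of reads held by gene groups summed these differences. Ubiquitin genes went from 0.984% (0.930 to 1.04) to 1.53% (1.52 to 1.54) of the listed reads, and mechanical stress genes from 0.263% (0.235 to 0.293) to 1.20% (1.19 to 1.21). Complex V went from 2.06% (1.98 to 2.14) to 0.805% (0.797 to 0.814), and antigen presentation from 0.158% (0.137 to 0.182) to 0.0462% (0.0442 to 0.0483). Shares are relative within a library, and Ttn alone went from 8.67% to 26.5%. Of the 390 genes outside every group 116 were higher and 109 lower, with a median at −0.05 relative to all genes.

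**Figure D5:**
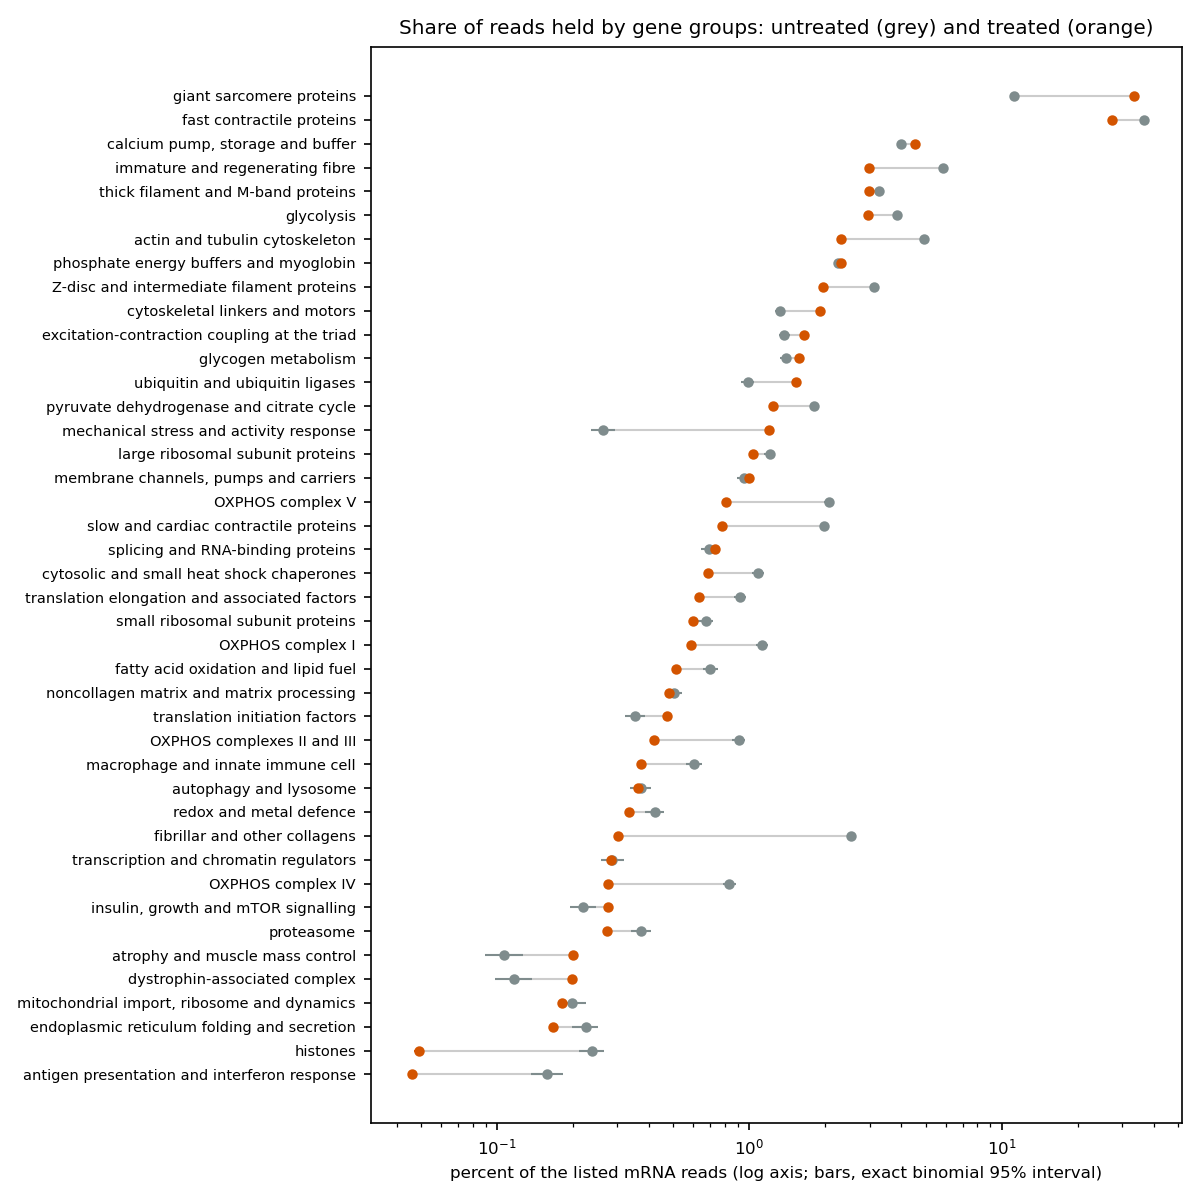
The percent of listed mRNA reads held by each gene group is drawn on a log axis for untreated (grey) and treated (orange) muscle, with exact binomial 95% intervals. Giant sarcomere proteins go from 11.2% to 33.5%, and collagens from 2.53% to 0.301%.

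The ratio depended little on how many untreated reads a gene had, with a Spearman correlation of −0.118 across the 1000 genes, which are no replicates and share both libraries. Genes with 17 to 19 untreated reads had a median log2 ratio of 0.43, and those with 60 to 199 one of −0.19. The calls did vary with untreated reads. The share called lower was 17.9% with 14 to 16 reads and 32.4% with 200 or more. The share called higher was 29.5% with 14 to 16 reads, 41.0% with 17 to 19 and 20.6% with 200 or more. The 68 genes with 200 reads or more had 14 higher and 22 lower calls, and their median interval reached 0.12 log2 units to each side. The part of the selection on untreated reads in these medians and shares was not tested.

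Ribosome footprints of the same muscles, another readout in the table, are given for a few genes beside their mRNA. Footprints of Pdk4 were 35.2-fold higher and those of Abra 10.3-fold, against 16.8 and 8.10 in mRNA. Those of Col1a1 were 19.7-fold lower, against 19.2-fold in mRNA. Zfp106, Ccng1 and Ybx1 had footprint ratios of 0.419, 0.425 and 0.365 beside mRNA ratios of 5.40, 6.61 and 5.70. Tnnc1 and Casq2 had footprint ratios of 0.821 and 0.469, less far from 1 than their mRNA. The difference between the 2 readouts was not tested here.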

How the data were processed

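The authors deposited a table of 1000 genes by RefSeq identifier with a read count per library, per the file headers. Its normalized columns equal the count times 1 constant per library and were read as CPM. How the authors made the deposited CPM columns is not stated in the headers, and the unit was inferred from the values. Per the submitters' processing notes the tools were Trimmomatic, STAR and edgeR with the genome build mm9, and no version is given. The counting of reads, by strand and where they match several places, was not given in the sources used here.

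Ratios came from the raw counts of the 2 mRNA libraries, scaled by TMM (edgeR 4.0.16, R 4.3.3), with exact conditional binomial 95% intervals (scipy 1.17.1). Of the listed genes 996 were matched to a RefSeq table of GRCm38.p6, used for names, and promoter sequences came from RefSeq on that build. Genes of the complete libraries outside the table were not analysed here. No minimum on reads was set, since most reads come from the treated library and a minimum on summed reads leaves out genes that are low there. Reads carried no molecular identifiers, so intervals understate the error of counting molecules, and nothing says that the libraries stand for more than 1 animal each.

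The members and gene lists were chosen with earlier results of these data known. Named genes are Dmd and Utrn, the 25 highest and 25 lowest by the interval bound nearest to 1, up to 5 members of each list on each side, gene pairs, and the 10 most abundant genes of each library. Gm5506 and the copy families were named after their values were seen. A few genes that the rule names were left out. The 7 alternative scalings used the authors' constants, the upper quartile, the listed total with or without the 20 most abundant genes, size factors of DESeq2 1.42.0, and TMM over 4 libraries or without Ttn. Other alternatives were read minimums, a 2-fold threshold and a 99% interval. The scripts were tested on simulated data.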

Additional observations from a re-analysis of the deposited data

How the results depend on the processing

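Genes higher numbered 148 with the listed total and 110 with the authors' constants, and genes lower 468 and 547, against 296 and 259. Their median log2 ratio was −0.83 with the authors' constants, −0.60 with the listed total, −0.34 with the upper quartile and −0.22 with the total that leaves out the 20 most abundant genes. The share of called genes on the higher side was 53.3% with TMM and 16.7%, 24.0%, 35.5% and 42.3% in those 4 settings. A minimum of 30 untreated reads left 105 higher and 129 lower among 419 genes, and a minimum of 200 summed reads left 296 and 167 among 906, since fewer genes were counted.

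Group medians relative to all genes cannot move with the scaling. With at least 200 summed reads they became 1.39 for giant sarcomere proteins, 0.72 for the thick filament, 0.10 for fast contractile genes, −1.29 for slow contractile genes and −0.29 for histones. With at least 30 untreated reads they became 0.42 for the thick filament, 0.38 for fast contractile genes and −1.87 for macrophage genes. With members of 1 list alone, fast contractile genes reversed to −0.070, macrophage genes were at −2.07 and autophagy at 1.59, and with copies counted once histones were at −1.23. With 0.5 added to each count and a normal in place of the exact interval, the interval of Dmd over Utrn left out 1, at 1.85. Lum was called lower with the authors' constants, at a ratio of 0.628 against 1.11 with TMM.

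No paired analysis was possible because each group had 1 library, so leaving out a replicate was not run. The comparison by protein length was not run, as no table of protein or transcript lengths was used here. With 25 reads in the median untreated gene, the median interval reached 0.62 log2 units to each side.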

Other observations

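Genes outside every group, chosen after their values were seen, included further metabolic and regulatory genes. Crat, which shuttles acetyl groups as carnitine esters, had 14 reads in untreated and 1725 in treated muscle and was 5.50-fold higher (95% interval 3.27 to 10.1). Vldlr, a lipoprotein receptor, had 18 and 2130 reads, 5.28-fold higher (3.33 to 8.92). Tbx15, a transcription factor of fast glycolytic fibres, had 15 and 1269 reads, 3.77-fold higher (2.28 to 6.76). Pink1, the kinase that marks damaged mitochondria for removal, had 40 and 2636 reads, 2.94-fold higher (2.15 to 4.12). Ogt, which attaches sugar to nuclear and cytosolic proteins, had 17 and 1095 reads, 2.87-fold higher (1.79 to 4.95). On the other side, Pa2g4, a growth-linked protein of ribosome assembly, had 55 and 229 reads, 5.38-fold lower (3.94 to 7.26), and Col7a1, an anchoring collagen that the collagen group did not list, had 21 and 62 reads, 7.59-fold lower (4.40 to 12.6). These 7 genes held their calls under all 8 scalings.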
